A study of Mus musculus with 6 samples.

Results

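The testis-specific serine kinases (TSSKs) are protein kinases made in male germ cells after meiosis, and their substrate Tsks is a protein that binds members of the family in spermatids. The 6 genes described here are Tssk1, Tssk2, Tssk3, Tssk4, Tssk6 and Tsks. They were taken by gene name from the probe annotation of a whole mouse genome array, which carried 8 probes for them among 41174 probes and 27376 gene names. RNA came from whole testes of males aged 6 to 8 weeks on a mixed 129Sv/C57BL/6 background, with 3 Prss55-/- mice and 3 wild-type (wt) mice, 1 array per mouse. Prss55 encodes a membrane-anchored serine protease of the testis, and the null allele was made by homologous recombination in embryonic stem cells, with colony breeding by heterozygous intercrosses. Whether the wt mice were littermates is not given in the sources used here. The comparison asks whether the transcripts of this kinase family differed in testes lacking Prss55.

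TSSKs belong to the branch of the kinome that also holds the AMP-activated and MARK kinases, and they act during spermiogenesis, when round spermatids condense their nuclei, build the acrosome and grow a flagellum. TSSK1 and TSSK2 bind TSKS and are found at the chromatoid body and the sperm neck, TSSK6 is required for normal chromatin condensation, and TSSK4 phosphorylates the flagellar protein ODF2. Loss of several of these kinases makes male mice sterile. The heat shock protein HSP90 keeps most of them folded, and TSACC is a co-chaperone that activates TSSK6.

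The kinases are related in sequence and each value stands for the RNA that 1 probe captured, so 4 of the probes are shown, as the scanner files give them. Capitals mark the longest run that each shares with any other probe of the family, those not printed and Tssk5 included.
Tssk1: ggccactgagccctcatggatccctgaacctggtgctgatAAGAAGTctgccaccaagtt
Tssk3: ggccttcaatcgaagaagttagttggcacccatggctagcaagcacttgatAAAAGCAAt
Tssk4: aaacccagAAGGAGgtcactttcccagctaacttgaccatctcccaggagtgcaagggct
Tssk6: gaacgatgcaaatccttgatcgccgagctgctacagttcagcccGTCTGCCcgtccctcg

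The Tssk1 probe shared a run of 7 bases with that of Tssk3, and the Tssk6 probe 7 bases with that of Tssk1. The marked run of Tssk3, 8 bases, is shared with another Tssk4 probe and that of Tssk4, 6 bases, with another Tssk1 probe, neither of them printed. Over all 36 pairs among the 9 probes, no run was longer than 8 bases, and the best ungapped alignment matched 24 of 60 bases. The G and C content of the 8 member probes ran from 35.0% for Tssk2 to 60.0% for Tssk6. Only probes were compared with each other, and whether a probe also matches the transcripts of other family members was not tested.

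In mouse build mm9, as the scanner files give it, the Tssk1 probe lies at chr16:17895321-17895380 and the Tssk2 probe at chr16:17900050-17900109, both on the plus strand and 4.67 kb apart. In the RefSeq gene order of GRCm38.p6 these 2 genes neighbour each other, between Dgcr2 and Ess2. The other members are dispersed. Tssk3 was probed at chr4:129166305-129166364 on the minus strand, Tssk6 at chr8:72426918-72426977 and Tsks at chr7:52213345-52213404, both on the plus strand. Tssk4 had a brighter probe at chr14:56271292-56271351 and a dimmer one, the one printed above, at chr14:56270634-56270959, both on the plus strand. The 60 bases of the dimmer probe span 326 bases of genome and skip 266 of them, as a probe across an exon junction does. The annotation ties the brighter Tssk4 probe to 3 RefSeq transcripts and the dimmer probe to 1 of these. Whether the other probes sit in coding or untranslated exon sequence is not given in the files.

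Signals are given as log2 of the quantile-normalized array signal, and a difference is Prss55-/- minus wt on that scale. Between 69.5% and 72.9% of the spots on each array were well above background, no spot was saturated, and log2 signals of the tested probes correlated between arrays at 0.992 to 0.997. With 3 arrays a genotype, their number limits the precision. The 3 Prss55-/- arrays shared 1 slide, wt replicates 1 and 2 shared another and wt replicate 3 lay on a slide of its own, so slide and genotype cannot be told apart. As a check of the labels, the Prss55 probe read 15.08, 14.95 and 14.93 in Prss55-/- testes and 15.87, 15.77 and 16.01 in wt testes. Its groups did not overlap, and the difference of -0.90 (SE 0.08) passed (limma adjusted p = 0.01). The signal in Prss55-/- testes was 0.536 of wt (95% interval 0.468 to 0.613) and stayed well above background on all 3 arrays. The annotation ties the Prss55 probe to a cDNA record and not to a RefSeq transcript. Whether that probe lies inside the deleted part of the gene was not established here, and a probe outside it would not check the genotype. For this knockout line the paper reports loss of Prss55 mRNA by RT-PCR. It also reports loss of the protein by Western blot and immunofluorescence.

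No TSSK gene passed the test between genotypes. Of the 8 member probes, 7 were well above background and were tested, and 0 had a limma adjusted p below 0.05, where 1.21% of all 28606 tested probes did. Without adjustment, 2 of the 7 had p below 0.05, both of them Tssk4 probes, beside 19.1% of all tested probes. The same 2 probes were the ones without overlap between genotypes, beside 26.3% of all tested probes for separation either way and 13.4% for separation with Prss55-/- higher. Per gene this was 1 of 6 members, beside 20.0% of the 19181 genes tested for the unadjusted p and 27.4% for separation. The other 5 tested probes differed by less than 0.1 either way, as 52.1% of all tested probes did. The median difference over the 7 probes was 0.03, and over all tested probes it was 0.0019. In bulk tissue, fewer cells of a type and less RNA per cell cannot be told apart.

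**Figure D1:**
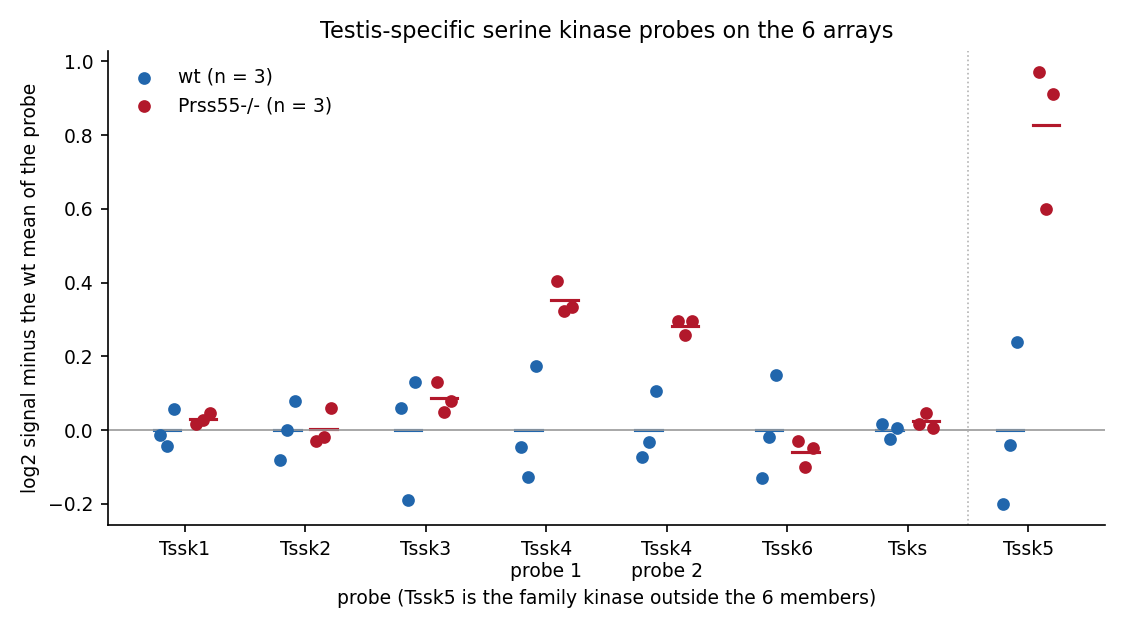
Each point is 1 array, and the y axis gives the log2 signal of a probe minus its mean in wt, so that 0 is the wt mean; horizontal bars are group means (n = 3 and 3). The genotypes separate at both Tssk4 probes and at Tssk5, and they overlap at Tssk1, Tssk2, Tssk3, Tssk6 and Tsks.

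Tssk4 was the member with the largest difference. TSSK4 is a kinase of elongating spermatids. Its brighter probe read 14.07, 13.99 and 14.00 in Prss55-/- testes and 13.62, 13.54 and 13.84 in wt testes. All 3 Prss55-/- values lay above all 3 wt values, with a gap of 0.15 between the groups, and wt replicate 3 was the wt array closest to the mutants. The group means were 14.02 ± 0.042 and 13.67 ± 0.15 (SD, n = 3 each). The difference of 0.35 (SE 0.085, 95% limma interval 0.15 to 0.56), a 1.28-fold higher signal (1.11 to 1.47), did not pass (limma adjusted p = 0.11). An exact permutation test over the arrays gave p = 0.1, the smallest that 3 against 3 allows.

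The dimmer Tssk4 probe lies 333 bases from the brighter one and reads the same RNA samples, so it is no second replicate of the result. It read 13.52, 13.48 and 13.52 in Prss55-/- testes and 13.15, 13.19 and 13.33 in wt testes. Again no wt array reached the lowest Prss55-/- array, here by a gap of 0.16. Its difference was 0.29 (SE 0.061, 95% interval 0.14 to 0.43), or 1.22-fold (1.10 to 1.35), and it did not pass (limma adjusted p = 0.088). Without wt replicate 3 the brighter probe did pass (difference 0.44, limma adjusted p = 0.043), and the dimmer probe did not pass with any single array left out (0.053 to 0.29). Wt replicate 3 also held the highest wt value at 6 of the 7 tested member probes, and it was the one array on its slide.

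Tssk1 and Tssk2, the neighbouring pair whose kinases bind TSKS, had nearly the same signal in both genotypes. Tssk1 read 15.07, 15.08 and 15.10 in Prss55-/- testes and 15.04, 15.01 and 15.11 in wt testes. The wt values spanned those of the mutants. The difference was 0.03 (SE 0.048, 95% interval -0.08 to 0.15, limma adjusted p = 0.75). Tssk2 read 15.27, 15.28 and 15.36 in Prss55-/- testes and 15.22, 15.30 and 15.38 in wt testes. Here too every Prss55-/- value fell within the range of the wt values. The difference was 0.0063 (SE 0.06, 95% interval -0.14 to 0.15, limma adjusted p = 0.97).

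A second probe carries the Tssk1 name in the files but is tied there to a cDNA record and not to the RefSeq transcript. It lies at chr16:17897935-17897994, 2.56 kb from the first probe and between the Tssk1 and Tssk2 probes. It was well above background on 1 array, wt replicate 2, and was not tested. It read 4.05, 3.89 and 4.19 in Prss55-/- testes and 4.06, 5.63 and 4.93 in wt testes. Its signal gave no measurement of Tssk1 in either genotype, and no fold is given.

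Tssk3, a further spermatid kinase that male mice need for fertility, read 16.64, 16.56 and 16.59 in Prss55-/- testes and 16.57, 16.32 and 16.64 in wt testes. The groups overlapped, and wt replicate 2 was lowest of the 6 arrays. The difference was 0.09 (SE 0.091, 95% interval -0.13 to 0.31, limma adjusted p = 0.62), and without wt replicate 2 it was -0.0027.

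Tssk6, the kinase tied to chromatin condensation, read 15.19, 15.12 and 15.17 in Prss55-/- testes and 15.09, 15.20 and 15.37 in wt testes. The mutants lay between the lowest and the middle wt array. The difference was -0.07 (SE 0.079, 95% interval -0.26 to 0.13, limma adjusted p = 0.68), and without wt replicate 3 it was 0.0079.

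Tsks, the substrate, was the steadiest member. It read 16.92, 16.95 and 16.91 in Prss55-/- testes and 16.92, 16.88 and 16.91 in wt testes. The groups overlapped, with SDs of 0.023 and 0.02 (n = 3 each). The difference was 0.02 (SE 0.043, 95% interval -0.08 to 0.13, limma adjusted p = 0.79).

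**Figure D2:**
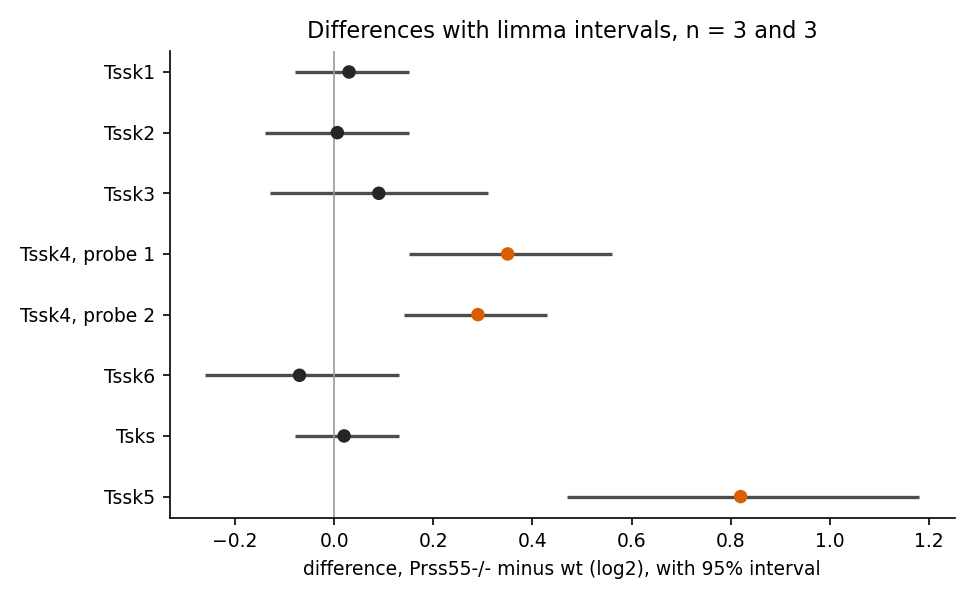
Points are the differences (Prss55-/- minus wt, log2) for the 7 tested member probes and Tssk5, and lines are 95% limma intervals from 3 and 3 arrays, each unadjusted for the number of probes. Orange marks the probes whose groups did not overlap, Tssk4 (0.35 and 0.29) and Tssk5 (0.82), and the intervals of Tssk1, Tssk2, Tssk3, Tssk6 and Tsks include 0.

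For the 5 members other than Tssk4, the limits of the 95% limma intervals ran from -0.26 to 0.31 on the log2 scale. This is a signal between 0.836 and 1.24 of wt. Each interval is unadjusted for the number of probes, and none separates a slide effect from genotype. These outer limits are those of Tssk6 and Tssk3, and the intervals of Tssk1 and Tsks were narrower. The mean of these 5 members was 15.81 ± 0.014 in Prss55-/- and 15.80 ± 0.075 in wt testes (SD, n = 3 each), a difference of 0.02.

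The TSSK probes were among the brightest on the array in both genotypes. A percentile here is the rank of a probe's signal among all 41174 probes of an array, and since brightness depends on the probe as well as on the RNA, it does not order the transcripts of different genes. Tsks stood at the 99.6 to 99.7 percentile over the 6 arrays and Tssk3 at 99.1 to 99.4. Tssk2 stood at 97.4 to 97.8, Tssk6 at 97.2 to 97.7 and Tssk1 at 97.0 to 97.2. The lowest ranks of tested members were those of Tssk4, at 92.5 to 94.5 for the brighter and 90.9 to 92.5 for the dimmer probe. The second Tssk1 probe stood at 20.2 to 32.7.

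The array also carries Tssk5, a family kinase that is not among the 6 members, and it is described because its values were seen to separate. Its probe lies at chr15:76202685-76202833 on the minus strand and skips 89 bases of genome. It read 11.19, 10.82 and 11.13 in Prss55-/- testes and 10.02, 10.18 and 10.46 in wt testes. Every Prss55-/- value was above every wt value, by a gap of 0.36. The means were 11.05 ± 0.20 and 10.22 ± 0.22 (SD, n = 3 each), a difference of 0.82 (SE 0.14, 95% interval 0.47 to 1.18) or 1.77-fold (1.39 to 2.26). It did not pass (limma adjusted p = 0.062). With the normexp background correction in place of the scanner's it did (0.76, limma adjusted p = 0.035), within a range of 0.035 to 0.23 over the 14 alternatives.

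Tssk4 and Prss55 share chromosome 14, at 8.42 Mb from each other. Within 1 Mb of Tssk4, 55 other genes were tested, and their median difference was -0.04. Of these, 5 were higher and 12 lower in Prss55-/- testes at an unadjusted p below 0.05, where 20.0% of all genes tested were below it in either direction. Without overlap between genotypes, 7 were higher and 13 lower, beside 27.4% of all genes tested. The homeobox gene Homez, 0.8 Mb away, was the 1 neighbour that passed, with a difference of 0.52 (limma adjusted p = 0.017), beside 1.39% of all genes tested. Around Tssk1 and Tssk2, 54 genes were tested within 1 Mb and 0 passed. How far 129Sv sequence around the targeted gene extends in these mice was not measured.

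The genes that work with TSSKs showed no call either. Of 11 listed partners, co-chaperones and substrates, 11 were tested and 0 passed, beside 1.39% of all genes tested. The median difference was -0.01, and 1 gene had an unadjusted p below 0.05, beside 20.0% of all genes tested. That gene was Crem, whose products switch on transcription in round spermatids. Crem read 15.05, 15.09 and 15.09 in Prss55-/- testes and 14.85, 14.91 and 14.92 in wt testes. The groups did not overlap, as for 27.4% of all genes tested, and the difference was 0.18 (limma adjusted p = 0.12). Among its 6 probes the differences ran from 0.02 to 0.18. Next by adjusted p came Hsp90aa1, an HSP90 chaperone, with a difference of 0.10 (0.44) and Ppp1cc, a phosphatase subunit of sperm, with -0.08 (0.54), where its other probe gave 0.06. The co-chaperone Tsacc, named for its role with TSSK6, had means of 16.78 ± 0.021 and 16.80 ± 0.062 (SD, n = 3 each) and differed by -0.02, and its other probe gave -0.01. The brightest of 4 probes of Odf2, the TSSK4 substrate, differed by 0.08 (limma adjusted p = 0.55) and the others by -0.19 to -0.10, so that they disagreed in sign, with 0 of them past the test.

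Among the related AMPK and MARK kinases, 17 of 18 listed genes were found and 16 tested. Of these 0 passed, beside 1.39% of all genes tested. At an unadjusted p below 0.05, 6 were higher and 1 lower in Prss55-/- testes, or 7 of 16 beside 20.0% of all genes tested, and the median difference was 0.03. Prkaa2, a catalytic subunit of AMPK, had means of 7.24 ± 0.092 and 6.92 ± 0.071 (SD, n = 3 each), a difference of 0.31 (limma adjusted p = 0.091). Nuak1 differed by 0.36 (0.15) and Snrk by 0.15 (0.18), with adjusted p in brackets. Hunk, 1 of the kinases of this list, passed under 1 of the 14 alternatives, with Prss55-/- replicate 1 left out (-0.35, limma adjusted p = 0.046, against -0.25 and 0.25 with all arrays).

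Of 15 other kinases of germ cells, 15 were tested and 0 passed, beside 1.39% of all genes tested. At an unadjusted p below 0.05, 2 were higher and 1 lower, and the median difference was -0.0095. Stk36, a kinase linked to cilia and flagella, differed by 0.21 (limma adjusted p = 0.11). Aurkc, the meiotic Aurora kinase, differed by -0.21 (0.12). Mak, a kinase of germ cells and cilia, differed by 0.14 (0.22), and its other probe gave 0.0039. Over the 3 lists 11 of 42 genes, or 26.2%, had an unadjusted p below 0.05, beside 20.0% of all genes tested.

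**Figure D3:**
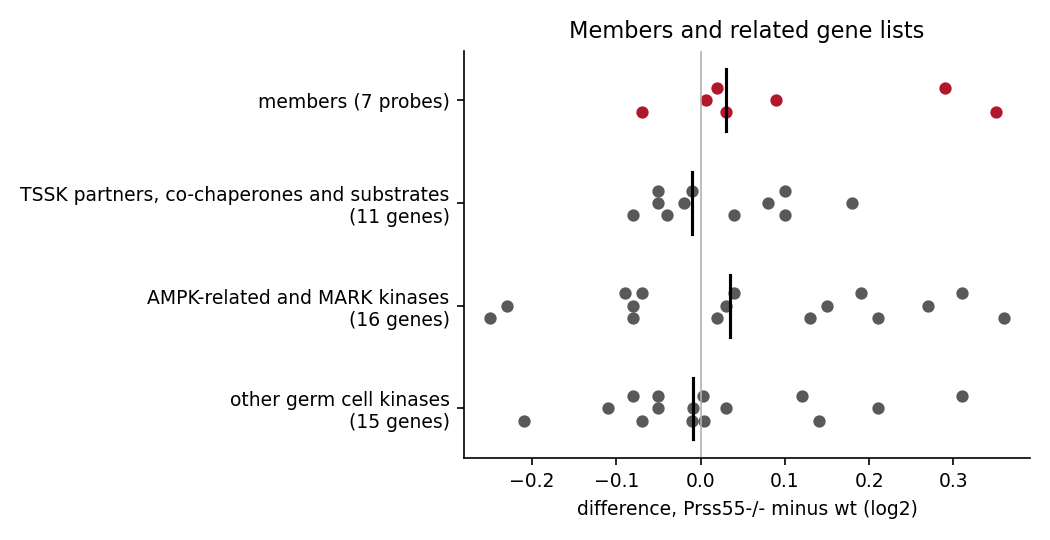
Each point is the difference (Prss55-/- minus wt, log2) of 1 member probe (red) or of 1 gene of a related list through its brightest probe (grey), and vertical bars are medians. The medians run from -0.01 to 0.03, and the 2 highest red points are the Tssk4 probes at 0.35 and 0.29.

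Markers of the spermatid stages that make TSSKs were measured on the same arrays. The mean log2 level of 6 round spermatid genes was 14.91 to 14.96 on the Prss55-/- arrays and 14.84 to 14.88 on the wt arrays, without overlap. Of these genes Spaca1 (0.25), Izumo1 (0.15) and Acrv1 (0.14), all acrosomal, were higher without overlap, Spata16 (-0.09) was lower without overlap, or 4 of 6 beside 27.4% of all genes tested, and 0 passed the test. The mean of 7 elongating spermatid genes was 17.18 to 17.24 and 17.17 to 17.29, which overlapped, and Tnp2, a transition protein of the condensing nucleus, differed by -0.20 without overlap. The part of these levels in the Tssk4 difference was not tested, and the list means of spermatogonia and macrophages, given below, separated too.

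Other cell types of the testis were checked with 8 further lists. Over all 10 lists 0 of 52 marker genes passed, beside 1.39% of all genes tested. The mean level for spermatogonia was 9.96 to 10.02 on Prss55-/- arrays and 9.91 to 9.95 on wt arrays, without overlap. For spermatocytes it was 12.66 to 12.74 and 12.63 to 12.73, which overlapped. Sertoli cell genes were at 12.87 to 12.90 and 12.90 to 12.97, and peritubular and vascular genes at 9.82 to 9.92 and 9.91 to 9.99. Macrophage genes were at 9.17 to 9.22 and 9.27 to 9.45, without overlap and lower in Prss55-/- testes. Genes of Leydig cells, the cells that make steroid hormones, had a median difference of -0.59 over 6 genes, with mean levels of 11.00 to 11.84 and 11.54 to 11.95. Hsd3b6 alone was higher in Prss55-/- testes (0.37). Hsd3b1 was lower without overlap (-0.67, limma adjusted p = 0.072), or 1 of 6 beside 27.4% of all genes tested. Cyp17a1 was lower with overlap (-0.38, limma adjusted p = 0.23). Star read 12.68, 10.49 and 10.46 in Prss55-/- testes and 12.05, 11.42 and 12.34 in wt testes, so its mutant arrays were split. Blood genes were at 12.37 to 12.61 and 12.08 to 13.04. For the epididymis, the duct attached to the testis, 0 of 5 markers were well above background on any array.

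**Figure D4:**
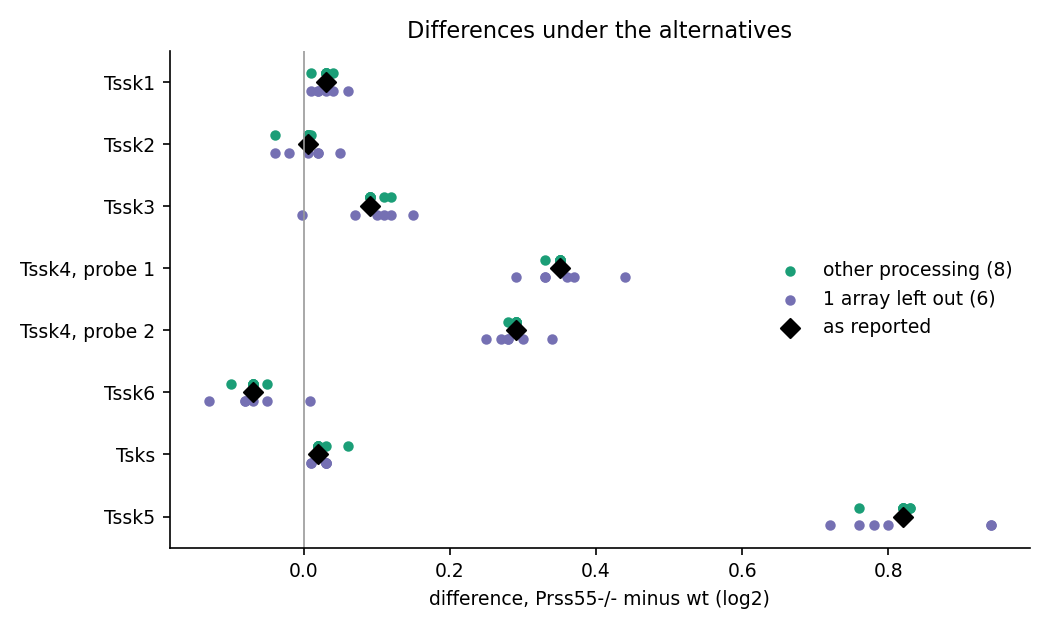
For each probe the diamond is the difference as reported (Prss55-/- minus wt, log2), upper points are 8 other ways of processing or testing, and lower points leave out 1 array each. Both Tssk4 probes (0.25 to 0.44) and Tssk5 (0.72 to 0.94) stay above 0 throughout, while Tssk2, Tssk3 and Tssk6 cross 0.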

How the data were processed

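RNA from the testes of 6 mice was hybridised to 1-colour Agilent whole mouse genome arrays, and the authors read them with Feature Extraction 10.7. The deposited scanner tables hold a processed signal, an intensity corrected for background within each array. The deposited matrix, used as an alternative, holds log2 values normalized over the arrays. The authors' methods name quantile normalization in GeneSpring.

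From the scanner tables, control and outlier spots were left out, intensities below 1 were set to 1, log2 values were quantile-normalized, and spots of a probe were averaged. A probe entered the test if 1 genotype or both had it well above background at every spot of their 3 arrays (28606 probes, 2 missing values). The test between genotypes was that of limma (version 3.58.1, lmFit and eBayes, under R 4.3.3, two-sided, with Benjamini-Hochberg over all tested probes, threshold 0.05), after a check on simulated data. Permutation tests were exact and two-sided, over every assignment of the arrays to genotypes. The labels number the arrays as replicates of a genotype, and the paper's methods give 3 mice of each genotype.

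The members and lists were chosen with earlier results of these data known. Named genes were every member probe, the 3 genes with the lowest adjusted p of each related list (partners, AMPK-related and MARK kinases, other germ cell kinases), the 5 genes most like the members over the arrays, Prss55, and markers whose list moved with a result. The brightest probe stood for a gene. Gene neighbours came from RefSeq (GRCm38.p6), and positions from the scanner files (mm9). The 14 alternatives were 75th percentile scaling, normexp with an offset of 50, no filter, probes above background on all 6 arrays, the deposited matrix, the methods' t-test, a replicate block, slide as a random block, and each of the 6 arrays left out. Signal rank was also taken among tested probes alone.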

Additional observations from a re-analysis of the deposited data

How the results depend on the processing

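No member probe passed under any of the 14 alternatives except the brighter Tssk4 probe, which had a difference of 0.44 (limma adjusted p = 0.043) without wt replicate 3. The number of member probes past the threshold was therefore 0 to 1 with 1 array left out, and that of related-list genes 0 to 1, the 1 being Hunk without Prss55-/- replicate 1. With 1 array left out the brighter Tssk4 probe ranged from 0.29 to 0.44, Tssk2 from -0.04 to 0.05, Tssk3 from -0.0027 to 0.15 and Tssk6 from -0.13 to 0.0079, the last 3 crossing 0. Tssk2 was also -0.04 with normexp. The causes were not tested. Among tested probes alone the mean percentile was 95.9 for Tssk1, 96.5 for Tssk2, 99.0 for Tssk3, 90.9 for Tssk4, 96.2 for Tssk6 and 99.4 for Tsks, against 97.1, 97.6, 99.3, 93.7, 97.4 and 99.6 among all probes, by construction, since dim probes were left out.

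Of all probes 346 passed, against 140 with no filter and 87 by the methods' t-test. Leaving out an array gave 862, 57 and 44 for the Prss55-/- replicates in order of their numbers and 67, 137 and 387 for the wt replicates. The label check by Prss55 missed the threshold by the methods' t-test (adjusted p = 0.071), under the replicate block (0.1), and with either Prss55-/- replicate 2 (0.068), Prss55-/- replicate 3 (0.068) or wt replicate 1 (0.066) left out. Scaling to the 75th percentile moved the median of all probes to 0.023.

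The paper describes the mice as 3 pairs, without saying how they were paired or whether the replicate numbers follow the pairs. Replicate numbers are shared between genotypes, and same-numbered arrays did not deviate together (correlations -0.0543, -0.0227 and -0.112). With 3 arrays a genotype this cannot settle whether mice were paired, and the main fit assumed no pairing by replicate number. With the number as a replicate block 13 probes passed, none of them a member, and the Tssk4 probes differed by 0.35 (adjusted p = 0.23) and 0.29 (0.22). With slide as a random block 287 passed, again no member. No slide held arrays of both genotypes, so this block cannot separate a slide effect from genotype.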

Other observations

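Over the 6 arrays the members did not vary as 1 group. The Pearson correlation between their log2 signals, over arrays of both genotypes that share slides, ran from -0.36 for Tssk6 with Tsks to 0.80 for Tssk1 with Tssk3, and was 0.65 for the neighbours Tssk1 and Tssk2. The mean profile of the members, each centred on its own mean, was 0.05, 0.02 and 0.04 on the Prss55-/- arrays and -0.07, -0.10 and 0.06 on the wt arrays. Among the members it averages, Tssk4 spread most between arrays, and Tssk3 was low on wt replicate 2. A gene that resembles this profile need not resemble each member. Among 16006 genes compared with that profile, the 5 with the highest Pearson r over the 6 arrays were Cep128 (0.9987), Cela3b (0.9974), Sh2d4a (0.9963), Vegfa (0.9946) and Ddx39 (0.9889). They are the extremes of many genes ranked on 6 arrays, and shared regulation was not tested. Their differences between genotypes ran from 0.09 to 0.26, and none passed (limma adjusted p from 0.36 to 0.5). Of the genes compared, 385, or 2.41%, had an r above 0.9. Tssk5 had 75 tested genes within 1 Mb, of which 0 passed, beside 1.39% of all genes tested, and their median difference was -0.0052. At an unadjusted p below 0.05, 5 were higher and 5 lower, beside 20.0% of all genes tested in either direction.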
